A study of Drosophila melanogaster with 24 samples.

Results

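The cytosolic ribosomal protein genes of Drosophila melanogaster were followed in whole embryos on 24 Affymetrix DrosGenome1 arrays. Members were the probe sets whose platform symbol begins with RpL or RpS and a digit, or with RpLP and a digit, provided that 3 or more of the 24 arrays reached a log2 value of 5, with 1 probe set per gene. The pattern matched 37 genes, of which 32 passed and were followed, among 5736 rows tested. They comprised 12 small subunit genes, 14 large subunit genes, the 3 stalk genes and 3 genes whose names end in -like. RefSeq lists 92 protein-coding genes of this name pattern, and the others were not analysed here.

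The series activated the Notch and the receptor tyrosine kinase pathways throughout the embryo, alone or together, to find targets that both share. Every embryo, controls included, came from a mother homozygous for arm-GAL4, in which the armadillo promoter drives the yeast activator GAL4 at moderate levels in all cells. Fathers carried UAS-NotchICD (Notch embryos), UAS-Ras1V12 (Ras embryos), both transgenes (combined embryos) or neither (w1118, control embryos), so each cross had its own paternal strain. NotchICD is the ligand-independent intracellular part of the Notch receptor, and Ras1V12 is a constitutively active form of the Ras GTPase. Embryos were frozen in a late window, from 7 h to 8 h after egg lay, or an early window, from 5 h 45 min to 6 h 45 min. Each of the 8 groups held 3 arrays from independent experiments, with about 500 pooled embryos per collection. In such bulk samples, fewer cells of a type and less RNA per cell cannot be told apart.

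Ribosomal proteins join ribosomal RNA in the nucleolus to form the small subunit, which reads the message, and the large subunit, which joins amino acids and carries the protruding stalk that recruits translation factors. Their genes are expressed in every growing cell, and their products are needed in matched amounts; in the fly, losing a copy of many of them gives the Minute phenotype of slow development and short bristles. In the early embryo much of the translation machinery is supplied by the mother, and zygotic transcription gradually replaces it.

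Values are GC-RMA expression values on the log2 scale, so a difference of 1 is a doubling. Changes are log2 differences of group means from a single limma fit over all 24 arrays, given with the standard error of that fit. A gene was called at a Benjamini-Hochberg adjusted p under 0.05 across the 5736 rows of a comparison. Levels are given for each gene on its own, since levels of different probe sets are not comparable. The median over all 5736 rows was 6.81 to 6.96 on late arrays and 6.65 to 6.84 on early arrays. The GAPDH control probes have a 3' signal minus 5' signal that can grow with RNA breakdown and with the transcript's own level. They gave differences of 1.43 to 3.91 log2 units on late arrays and 0.401 to 1.35 on early arrays. The differences of actin were 0.271 to 0.885 and 0.440 to 0.859. Those of eIF-4a ran the other way, at 1.50 to 2.02 on late arrays and 1.96 to 2.49 on early arrays. Ras late replicate 3 had the lowest mean of the hybridisation spike controls, 7.89 log2 units, where every other array reached 8.67 or more. It and Notch late replicate 1 lay low in many members.

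Most members were measured close to the top of the scale. The median over the 32 members was 12.75 to 13.02 log2 units on late arrays and 12.57 to 12.77 on early arrays. The exceptions were RpL24-like, RpL7-like, RpLP0-like, RpS29 and RpL37-2. RpL37-2, a second copy of RpL37, was the member nearest the threshold, at 4.82 to 5.32 over the 24 arrays and at 5 or more in 19 of them. The 5 genes below it were also second copies, RpL10Aa, RpL22-like, RpS10a, RpS19b and RpS28a. Their highest values on any array were 3.95, 4.29, 2.62, 3.66 and 2.57. The listed partner of 2 of them passed, RpL10Ab at 12.67 to 13.23 and RpS28b at 12.45 to 13.01, as did RpL37-1, the partner of RpL37-2, at 12.42 to 12.94.

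On the deposited scale, ribosomal protein transcripts were higher in late than in early embryos of every cross, by small and similar amounts. The median change over the 32 members was 0.26 log2 units in Notch, 0.21 in Ras, 0.27 in combined and 0.22 in control embryos, or 1.19-, 1.16-, 1.21- and 1.17-fold. The medians over all rows were 0.07, 0.04, 0.03 and -0.002. The Ras median was 0.14 without late replicate 2 and 0.30 without late replicate 3. The estimate was above 0 for 32 members in Notch embryos and for 30 in each of the other crosses. The heat map of deviations by array shows late arrays mostly above early arrays for all but a few genes, with the windows overlapping in many. Only for RpL27, RpL32, RpL36A and RpL37A did every late array lie above every early array. Centring the arrays on the CreX spike controls, which shifts all rows of an array alike, gave members' medians of -0.038, 0.386, 0.328 and 0.357 in Notch, Ras, combined and control embryos, with medians over all rows of -0.22, 0.21, 0.08 and 0.13. The Notch sign was thus reversed by a shift of all rows. The members' median was 0.19, 0.17, 0.25 and 0.23 above that of all rows. Such a shift leaves this gap almost unchanged by construction. The spike controls did not move alike in Notch embryos. CreX had means of 13.66 (5') and 13.96 (3') on late arrays and 13.34 and 13.70 on early arrays. The BioDn 3' control had 11.04 late and 11.23 early, and the mean of the spike controls was 9.66 and 9.53. Centring on controls other than CreX is not given here.

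Called as higher in the late window were 9 of 32 members in Notch embryos (18.4% of all rows), 9 in Ras embryos (17.8%), 16 in combined embryos (20.3%) and 6 in control embryos (18.3%). None was called lower (9.99%, 10.7%, 13% and 13.1% of rows), but after quantile normalisation 1 member was in Ras and 1 in control embryos. The shares of members called, other than in combined embryos, were thus not far from the background. All 3 late values lay above all 3 early values for 19 members in Notch (26.7% of rows), 12 in Ras (23.6%), 22 in combined (29%) and 20 in control embryos (24.2%). Among 108 other rows as bright as most members in mean level, 32, 31, 35 and 29 were called higher and 19, 17, 19 and 21 lower in the same order of crosses, with medians of 0.17, 0.15, 0.19 and 0.12.

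Single arrays moved these counts. In Notch embryos 15 members were called without late replicate 1 and 5 without late replicate 3 or early replicate 2. In Ras embryos 15 were called without late replicate 3, 3 without late replicate 2, and 5 without late replicate 1 or early replicate 1 or 3. In combined embryos 6 were called without early replicate 2, 7 without late replicate 2 or 3, and 10 without late replicate 1 or early replicate 3. In control embryos 2 were called without late replicate 3 or early replicate 3, and 3 without early replicate 2.

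RpL10Ab, RpL27, RpLP1 and RpS26 were called in all 4 crosses, and RpL17, RpL36A and RpS15 in 3. A further 4 members were called in 2 crosses, 7 in 1 and 14 in none. With any single array left out, RpLP1 kept its call in Notch, Ras and combined embryos, RpS26 in Notch and Ras, RpL10Ab in Notch and RpL27 in control embryos. Their other calls were each lost without at least 1 array (limma adjusted p up to 0.13). The plot of changes by cross shows the estimates of 31 members with their intervals.

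**Figure D1:**
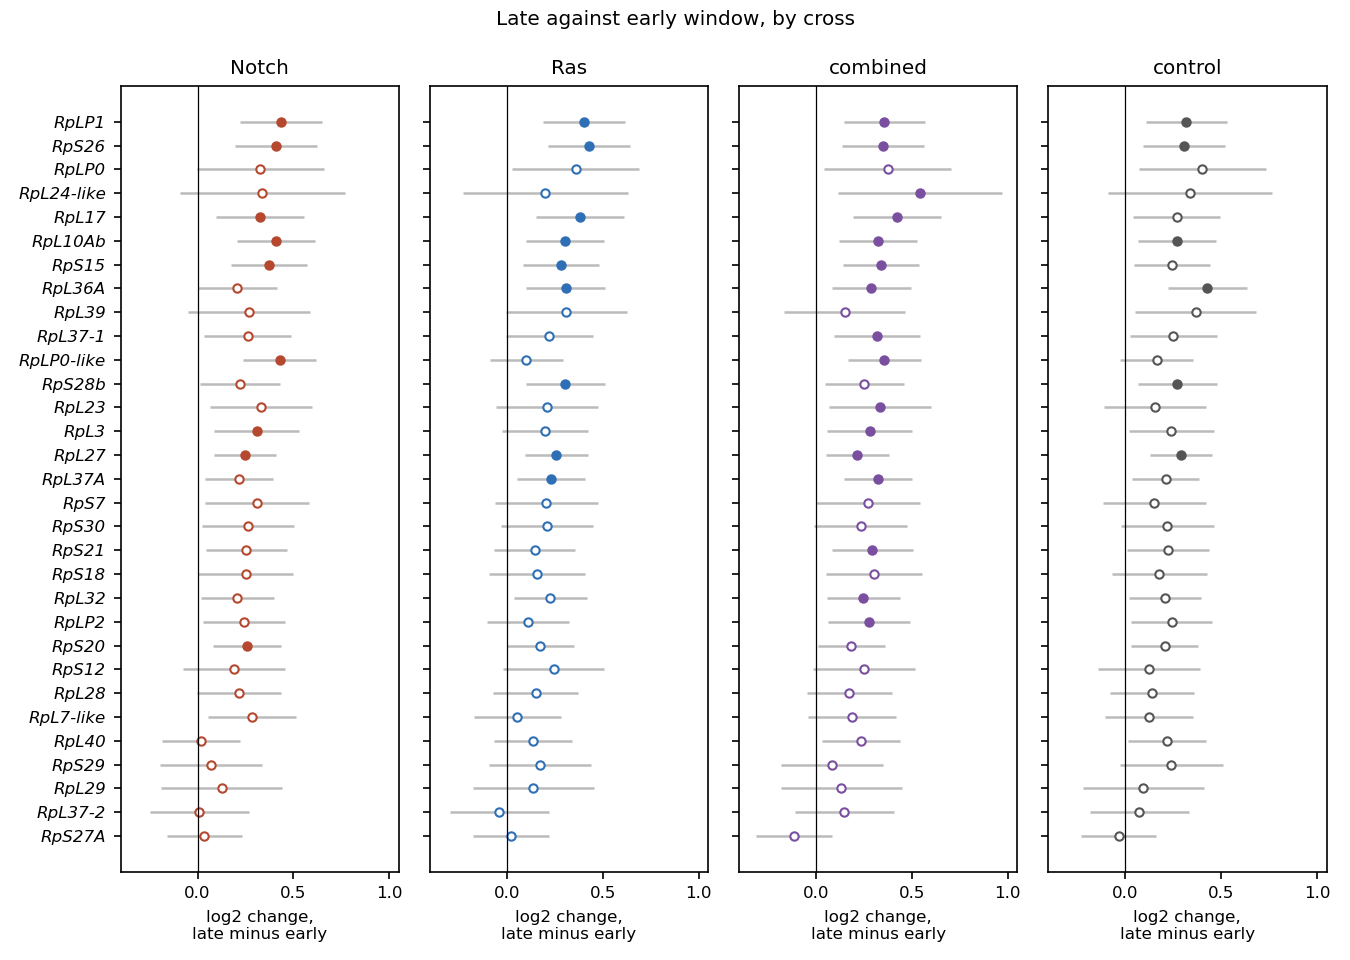
Log2 change from limma, late minus early window (horizontal axis), for 31 of the ribosomal protein genes in Notch, Ras, combined and control embryos, with 95% confidence intervals as grey lines; filled points are called at an adjusted p under 0.05. The filled points number 9, 9, 16 and 6, all of them above 0, and RpS27A at the bottom stays near 0 in each cross.

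Of the 3 stalk genes, RpLP1 and RpLP0 had some of the largest changes. RpLP1 encodes one of the acidic proteins that hang from the stalk base and touch elongation factors. It stood at 13.32, 13.55 and 13.60 in late and at 12.96, 13.03 and 13.17 in early Notch embryos. In Ras embryos it was at 13.52, 13.62 and 13.15 in the late and at 13.01, 13.01 and 13.06 in the early window. In both crosses the late values lay above the early ones, though replicate 3 of late Ras embryos did so by less than the others. In combined embryos RpLP1 was at 13.39, 13.43 and 13.45 late and 13.04, 13.04 and 13.12 early. In control embryos it was at 13.43, 13.39 and 13.44 late and 13.10, 13.11 and 13.09 early. The gap between windows in these crosses exceeded the spread of either group. The changes were 0.43 ± 0.10, 0.40 ± 0.10, 0.36 ± 0.10 and 0.32 ± 0.10, with limma adjusted p of 0.0029, 0.0052, 0.011 and 0.021 in Notch, Ras, combined and control embryos.

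RpLP0 encodes the stalk base, which anchors the acidic proteins to the ribosomal RNA. Its changes were 0.33, 0.36, 0.38 and 0.40 ± 0.16 in Notch, Ras, combined and control embryos, and none was called (limma adjusted p = 0.13, 0.097, 0.074 and 0.058). Over the 12 arrays of a window, its lowest, median and highest values were 12.24, 12.41 and 12.58 late, and 11.72, 12.11 and 12.35 early. The early spread came from replicate 1, the lowest array in all 4 early groups at 11.74, 11.72, 11.76 and 11.87, where the remaining early arrays lay between 12.04 and 12.35. Without early replicate 1 the changes were 0.16, 0.21, 0.22 and 0.33. Without combined early replicate 3 that of combined embryos was 0.52 and was called (limma adjusted p = 0.028). With the replicate number as a block the limma adjusted p was 0.031 in Ras embryos, where the numbers paired arrays across windows. It was 0.022 in combined embryos, where a pair of different numbers correlated at 0.12 and the weakest same-numbered pair at 0.11. In Notch and control embryos, where the numbers did not pair arrays, it was 0.048 and 0.016.

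RpLP2, the partner of RpLP1 in the stalk, was at 12.69, 12.86 and 13.04 (lowest, median and highest of 12) in late and 12.43, 12.66 and 12.78 in early embryos. It was called in combined embryos alone (0.28 ± 0.10, limma adjusted p = 0.044), with changes of 0.24, 0.11 and 0.24 ± 0.10 in Notch, Ras and control embryos. The call in combined embryos was lost without any of 5 of the 6 arrays, all but early replicate 3 (limma adjusted p up to 0.21). Whether RpLP2 differs between crosses is given by the differences of these changes below, none of which was called.

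Among small subunit genes, 3 of 12 were called in Notch, 3 in Ras, 3 in combined and 2 in control embryos, with median changes of 0.25, 0.19, 0.25 and 0.21. These counts lay near the 18.4%, 17.8%, 20.3% and 18.3% of all rows called higher. RpS26, which lies where the message leaves the small subunit, changed by 0.41, 0.43, 0.35 and 0.31 ± 0.10 in Notch, Ras, combined and control embryos (limma adjusted p = 0.0048, 0.0034, 0.012 and 0.027). Its lowest, median and highest values over 12 arrays were 13.30, 13.56 and 13.68 in the late and 13.05, 13.18 and 13.31 in the early window. The only late array not above every early one was Ras replicate 3. RpS15, in the head of the small subunit, was called in Notch (0.37), Ras (0.28) and combined embryos (0.34 ± 0.10 each), and had 0.24 ± 0.10 in control embryos (limma adjusted p = 0.056). RpS28b was called in Ras (0.31) and control embryos (0.27) and RpS20 in Notch embryos (0.26 ± 0.08). RpS21 was called in combined embryos, at 0.29 ± 0.10, where RpS28b had 0.25 ± 0.10 (limma adjusted p = 0.055, and 0.031 with the replicate block).

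Large subunit genes were called in 4, 5, 9 and 3 of 14 cases in Notch, Ras, combined and control embryos, with median changes of 0.23, 0.23, 0.26 and 0.23. Against the same shares of all rows, the control count was near the background and that of combined embryos, 64.3%, was farthest above it. RpL27 varied least between arrays of a group (SD 0.067) and was higher in all 12 late arrays, at 13.26 to 13.45, than in any early array, at 13.01 to 13.20. Its changes were 0.25, 0.26, 0.22 and 0.29 ± 0.08, all called. The Notch value was -0.047 with arrays centred on the CreX controls, where the median of all rows was -0.22. RpL32, which fly laboratories often use as the reference transcript rp49 in quantitative PCR, was likewise higher in every late array (13.12 to 13.48) than in any early array (12.96 to 13.12). Its change was 0.21 to 0.25 ± 0.09 in the 4 crosses and was called in combined embryos alone (limma adjusted p = 0.042). RpL36A and RpL37A also had all late arrays above all early ones; in these genes and RpL32 the lowest late and the highest early value are equal after rounding.

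RpL10Ab, part of the movable arm beside the tRNA exit, was at 12.81, 13.07 and 13.23 (lowest, median and highest) late and 12.67, 12.75 and 12.83 early, with changes of 0.41, 0.30, 0.32 and 0.27 ± 0.10. RpL17, at the exit tunnel of the growing chain, was called in Notch (0.33), Ras (0.38) and combined embryos (0.42 ± 0.11), with 0.27 ± 0.11 in control embryos (limma adjusted p = 0.067). RpL36A was called in Ras (0.31), combined (0.29) and control embryos (0.43 ± 0.10), and was at 13.85, 13.60 and 13.91 in late and 13.29, 13.44 and 13.34 in early control embryos. RpL39, a short protein of the exit tunnel wall, was at 12.25, 12.82 and 12.94 late and 12.19, 12.51 and 12.62 early, and replicate 1 was its lowest array in all 8 groups. Its changes of 0.27, 0.31, 0.15 and 0.37 ± 0.15 were not called (limma adjusted p = 0.20, 0.13, 0.46 and 0.070). With the replicate number as a block, the limma adjusted p of RpL39 was 0.012 in Ras embryos, where the numbers paired arrays, and 0.028 and 0.0034 in Notch and control embryos. RpL3, which shapes the catalytic centre, was called in Notch (0.31 ± 0.11) and combined embryos (0.28 ± 0.11). RpL37-1 was called in combined embryos (0.32 ± 0.11), where its dim copy RpL37-2 had 0.15 ± 0.12, and RpL37-2 was between -0.04 and 0.07 in the other crosses.

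RpS27A had estimates near 0 in Notch, Ras and control embryos, and RpL40 in Notch embryos alone. RpS27A and RpL40 encode ribosomal proteins made as fusions with ubiquitin, from which they are cut. RpS27A was at 12.60, 12.93 and 13.09 (lowest, median and highest of 12 arrays) in late and at 12.84, 12.95 and 13.13 in early embryos, so that no late array exceeded all early ones. Its changes were 0.04, 0.02, -0.11 and -0.03 ± 0.09 in Notch, Ras, combined and control embryos. RpL40, the other fusion gene, changed by 0.02, 0.14, 0.23 and 0.22 ± 0.10, with no call.

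**Figure D2:**
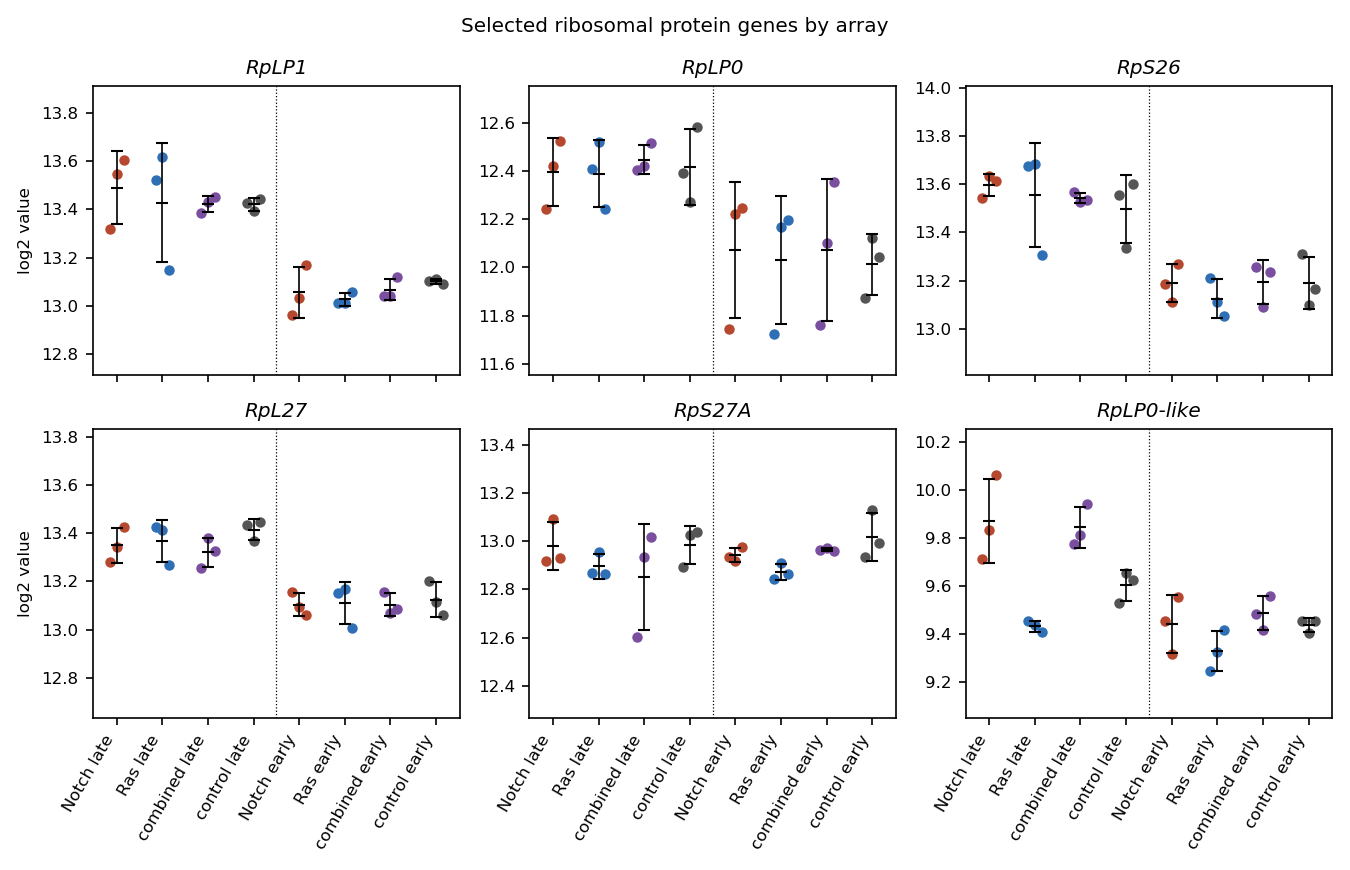
Log2 values of 6 genes on each array (points; 3 per group), with the group mean and SD (black bars, n = 3), late groups left of the dotted line and early groups right of it; each panel spans 1.2 log2 units. RpLP1, RpLP0, RpS26 and RpL27 are higher in late groups, with replicate 1 low in every early group for RpLP0; RpS27A shows no such gap; RpLP0-like is highest in late Notch and combined embryos.

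The 4 crosses share no arrays in these comparisons, and the mean of their changes, 12 late against 12 early arrays, was added after the values had been seen. In it 27 of 32 members were called higher (35.2% of rows) and none lower (26.3%), with a median of 0.24 (1.18-fold; all rows 0.03). By subunit these were 9 of 12 small subunit, 12 of 14 large subunit, 3 of 3 stalk and 3 of 3 -like genes. The largest changes were RpLP1 (0.38 ± 0.05), RpS26 (0.37 ± 0.05), RpLP0 (0.37 ± 0.08) and RpL24-like (0.35 ± 0.10). The limma adjusted p was 2.2e-06, 2.8e-06, 0.00049 and 0.0054 for these genes. This fit takes the 12 arrays of a window as independent, whereas same-numbered arrays of different crosses deviated together within a window.

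With the 3 sets of 4 same-numbered arrays in each window as a random block (correlation 0.297), 22 members were called higher (27.9% of rows) and none lower. With 1 mean per set, 3 late against 3 early sets, 18 were called higher (24.6%) and none lower. In that fit the changes were 0.38 ± 0.07 for RpLP1 (limma adjusted p = 0.0046), 0.37 ± 0.07 for RpS26 (0.0056) and 0.37 ± 0.12 for RpLP0 (0.045). RpL24-like lost its call (0.35 ± 0.13, limma adjusted p = 0.063).

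Of the 5 members without a call in the fit that takes all arrays as independent, 4 were RpS27A (-0.02, -0.12 to 0.08), RpL37-2 (0.05), RpL29 (0.12) and RpS29 (0.14, limma adjusted p = 0.059). RpL40 was called at 0.15 ± 0.05 (limma adjusted p = 0.011), but its value was -0.0034 after quantile normalisation, and its limma adjusted p was 0.086 with the sets as a random block and 0.13 with set means. With arrays centred on the median over all rows 20 members were called higher and 1 lower, after quantile normalisation 21 and 2, and with arrays centred on the CreX controls none. A lost call need not mean a smaller estimate. With CreX centring RpLP0, for example, had 0.38 (limma adjusted p = 0.073), against 0.37 on the deposited scale. The CreX 5' control itself had an SD of 0.32 over the 12 late and 0.29 over the 12 early arrays. Relative to the median of all rows, the members' median was 0.20 to 0.28 higher under every scaling and filter run. The scalings that shift all rows of an array alike leave this gap almost unchanged by construction.

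Other genes of protein synthesis were compared over the same windows. Of 32 translation initiation and elongation factor genes, 20 were called higher and none lower in the mean of the crosses (median 0.24), where 35.2% of all rows were called higher. Their counts were 8, 7, 9 and 8 in Notch, Ras, combined and control embryos, close to the shares of all rows (18.4%, 17.8%, 20.3% and 18.3%). Examples were eIF3e, a subunit of the initiation factor that scaffolds the small subunit (0.64 ± 0.14), and eIF4E1, the cap-binding protein (0.53 ± 0.12), both in control embryos. Of 63 mitochondrial ribosomal protein genes 31 were called higher and none lower (median 0.18), with mRpL21 at 0.71 ± 0.15 in control embryos. Of 24 ribosome biogenesis genes 7 were called higher and 2 lower (median 0.06), and of 7 RNA polymerase I genes 3 were called higher (median 0.16). In control embryos Polr1A, the largest subunit of the enzyme that transcribes ribosomal RNA, rose by 0.38 ± 0.10. Sbds, a factor of late large subunit maturation, rose by 0.68 ± 0.18 in the same embryos. Uhg1 had the largest called change of the biogenesis list there and fell (-1.97 ± 0.21, limma adjusted p = 6.3e-07).

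Differentiation markers and 2 of 3 measures of 3' against 5' signal moved over the same windows. All 4 muscle genes measured and all 4 hemocyte genes were called higher in late control embryos (medians 2.67 and 1.58), and neither list had a call in late against early Notch embryos (medians 0.69 and 0.28), where the members' median was 0.26. The GAPDH 3' minus 5' difference was higher on every late array than on any early array, that of eIF-4a was lower in mean on late arrays (1.78, against 2.19 on early arrays), and that of actin overlapped between windows. Their part in the members' change was not tested. Of 4 germ line genes listed only 1 was measured, and its change between windows was -0.07 to 0.18.

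No ribosomal protein gene was called between transgenic and control embryos in the fit without a replicate block. With the replicate number as a block, since the numbers paired arrays within each window, 1 member was called, RpLP0-like, in late Notch (limma adjusted p = 0.025; 21.5% of rows called) and late combined embryos (0.041; 22%). Without the block the count was 0 of 32 in each of the 6 comparisons, by limma, where 13.7% of all rows were called for Notch late, 2.16% for Ras late and 15.1% for combined late, and 5.42%, 0.366% and 6.96% for the same crosses early. At an unadjusted p under 0.05 there were 2, 0 and 1 members late and none early. The median changes of the members were 0.04 (Notch), -0.02 (Ras) and 0.03 (combined) in the late window, and -0.002, -0.01 and -0.008 in the early window; those of all rows were 0.01, 0.02 and 0.04 late and -0.04, -0.008 and 0.008 early. The 3 crosses share their control arrays within a window.

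The intervals bound, for each gene on its own, what could have been missed on the deposited scale in the fit without a replicate block. They do not cover a shift of all rows alike, such as CreX centring makes. The 95% interval of a member's change reached a median of 0.221 log2 units to either side. It lay within 0.4 of 0 in either direction for 29 members in Notch, 31 in Ras and 29 in combined embryos late, and for 30, 30 and 29 early. The widest intervals belonged to RpL24-like, which varied most between arrays of a group (SD 0.269) and reached 9.12, 9.33 and 9.31 in late combined embryos, against 8.56, 8.95 and 9.52 in late controls.

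**Figure D3:**
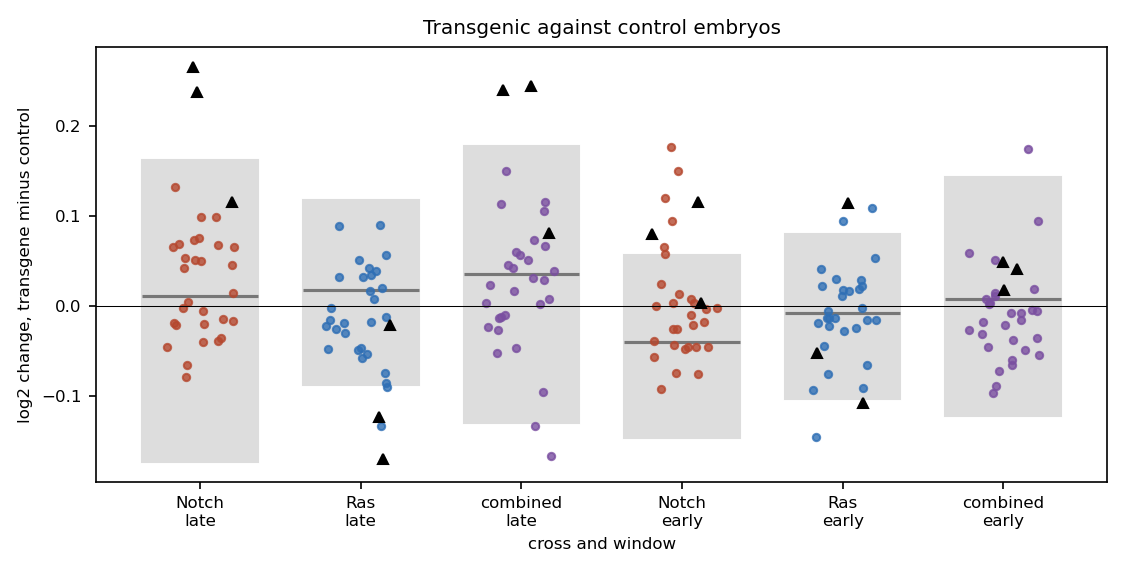
Log2 change of the 32 ribosomal protein genes (points; black triangles are the 3 -like genes), transgenic minus control embryos, for 3 crosses in the late and the early window. Grey boxes span the middle 50% of all 5736 rows, with their median as a line; the members stay near 0, and the triangles for late Notch and late combined embryos reach 0.27 and 0.24.

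The members with the smallest p differed between comparisons. In early Notch embryos RpL36A was at 13.49, 13.59 and 13.53, against 13.29, 13.44 and 13.34 in early controls, and RpL40 at 13.26, 13.27 and 13.29, against 13.21, 13.21 and 13.05. Neither pair of groups overlapped, as for 4 members higher in that comparison (6.15% of rows), and the changes of 0.18 ± 0.10 and 0.12 ± 0.10 had limma adjusted p of 0.54 and 0.80. In early Ras embryos RpS27A had -0.15 ± 0.10 (limma adjusted p = 1.00) and in early combined embryos RpS29 had 0.17 ± 0.13 (0.55). In late Ras embryos RpLP2 was at 12.69, 12.83 and 12.75, against 12.87, 12.83 and 12.97 in late controls, a change of -0.13 ± 0.10 (limma adjusted p = 0.84). In late combined embryos RpS27A had -0.13 ± 0.10 (0.43), with replicate 1 at 12.60 and the other combined arrays at 12.94 and 13.02.

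Of the stalk genes, the estimates of RpLP1 lay within 0.08 log2 units of control in all 6 comparisons, those of RpLP0 within 0.06 and those of RpLP2 within 0.13.

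In the fit without a replicate block, the gene that came closest to a call was RpLP0-like. It encodes a relative of the stalk base protein whose yeast counterpart, Mrt4, holds the place of the stalk base on the maturing large subunit and leaves before the ribosome works. In the late window it was at 9.71, 9.83 and 10.06 in Notch embryos and at 9.78, 9.81 and 9.94 in combined embryos. It was at 9.45, 9.44 and 9.41 in late Ras embryos, against 9.53, 9.65 and 9.63 in late control embryos. All Notch and all combined arrays were above every control array, as in 14.9% and 16.2% of all rows, and all Ras arrays were below every control array, as in 5.07%.

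The changes of RpLP0-like were 0.27 ± 0.09 for Notch (limma adjusted p = 0.059), 0.24 ± 0.09 for combined (0.089) and -0.17 ± 0.09 for Ras (0.58). With the replicate number as a block the limma adjusted p was 0.025 for Notch and 0.041 for combined, which passes the threshold, and 0.32 for Ras. Leaving out 1 array gave 0.34 (limma adjusted p = 0.024) without Notch late replicate 1, 0.17 (0.30) without Notch late replicate 3 and 0.23 (0.18) without control late replicate 1 for Notch, and limma adjusted p of 0.099 to 0.30 for combined. For Notch the limma adjusted p was 0.019 with arrays centred on the median over all rows, 0.031 after quantile normalisation, 0.037 without a filter on low values and 0.26 in a fit on only the arrays compared. Centring on the CreX controls gave -0.14 for Notch (limma adjusted p = 0.75) and 0.05 for combined, where the medians of all rows were -0.39 and -0.15. In the early window the gene was at 9.45, 9.32 and 9.56 in Notch embryos and 9.46, 9.40 and 9.45 in controls, with a change of 0.004 ± 0.09.

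RpL7-like and RpL24-like, relatives of the yeast assembly factors Rlp7 and Rlp24, did not pass. RpL7-like was at 7.32, 7.52 and 7.72 in late Notch embryos, against 7.26, 7.20 and 7.39 in late controls, a change of 0.24 ± 0.11 (limma adjusted p = 0.18; -0.17 with CreX centring). Without Notch late replicate 3 it was 0.14 (limma adjusted p = 0.54). The groups overlapped, with replicate 1 of Notch below replicate 3 of control. RpL24-like had 0.24 ± 0.21 in late combined embryos (limma adjusted p = 0.53). Between windows RpLP0-like was called in Notch (0.43 ± 0.09, limma adjusted p = 0.0014) and combined embryos (0.36 ± 0.09, 0.0053), and had 0.10 in Ras and 0.17 in control embryos. RpL24-like was called in combined embryos (0.54 ± 0.21, limma adjusted p = 0.048), a call lost without any array but early replicate 3 (up to 0.20).

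Differences of differences showed no call among members. For the Notch by Ras interaction, 0 of 32 were called in the late (0.227% of rows) and in the early window (0.139%). For the change between windows relative to that of controls, 0 of 32 were called for Notch (1.6% of rows), Ras (0.0697%) and combined embryos (2.55%). In all 5 of these limma comparisons no member had an unadjusted p under 0.05. The largest of them for RpLP0-like was 0.26 ± 0.13 for Notch against control (limma adjusted p = 0.50), so its larger rise in Notch embryos did not pass as a difference. That of RpL36A was -0.22 ± 0.14 for Notch (limma adjusted p = 0.67), and that of RpLP2 was -0.13 ± 0.15 for Ras (1.00). RpL39 had -0.22 ± 0.21 for combined embryos, in which late replicate 1 stood at 12.25 and replicates 2 and 3 at 12.76 and 12.86. These intervals reached a median of 0.313 log2 units to either side.

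Some genes that build ribosomes rose in late Notch embryos on the deposited scale. Of 24 ribosome biogenesis genes 4 were called higher and none lower in Notch against control (6.22% of rows higher), 20 had positive estimates, and the list's median was 0.24 where that of the 29 ribosomal proteins other than the -like genes was 0.01. RIOK2, a kinase of small subunit maturation, rose by 0.53 ± 0.12 and the nucleolar gene nclb by 0.47 ± 0.14. Of 7 RNA polymerase I genes 2 rose, Polr1A by 0.47 ± 0.10 and Polr1E by 0.35 ± 0.09 (median 0.26). No translation factor among 32 was called (median 0.006), and of 63 mitochondrial ribosomal protein genes 1 was called, mRpL12, which fell (-0.35 ± 0.09; median -0.13). Values with CreX centring are not given for these lists. In this comparison that centring, a shift of all rows alike, took RpLP0-like from 0.27 to -0.14.

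In late combined embryos 15.1% of all rows were called in either direction. The called biogenesis genes with the largest changes there, bys and Mat89Ba, rose by 0.32 ± 0.10 and 0.32 ± 0.08. The translation factor gene eIF5B rose by 0.45 ± 0.14, and the mitochondrial ribosomal protein gene mRpL20 fell (-0.49 ± 0.16). These are single genes chosen by the size of their change, and the counts called in each list are not given for this comparison. In late Ras embryos Polr1E fell (-0.82 ± 0.09, limma adjusted p = 9.7e-06), and it fell in early Ras embryos (-0.43 ± 0.09). Uhg1 of the biogenesis list was called lower than control in each early cross. Its changes were -2.40 in Notch, -2.38 in Ras and -2.37 in combined embryos (± 0.21 each), against shared control arrays. Its change between windows minus that of controls was 2.05, 1.78 and 1.94 ± 0.29 in the same order, all called. The plot of list medians places the lists side by side. Late Notch embryos also had lower markers of nerve cell precursors (4 of 5 called), neurons (2 of 2) and hemocytes (4 of 4), with list medians of -3.43, -1.90 and -1.25, and the part of such cell types in the biogenesis values was not tested.

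**Figure D4:**
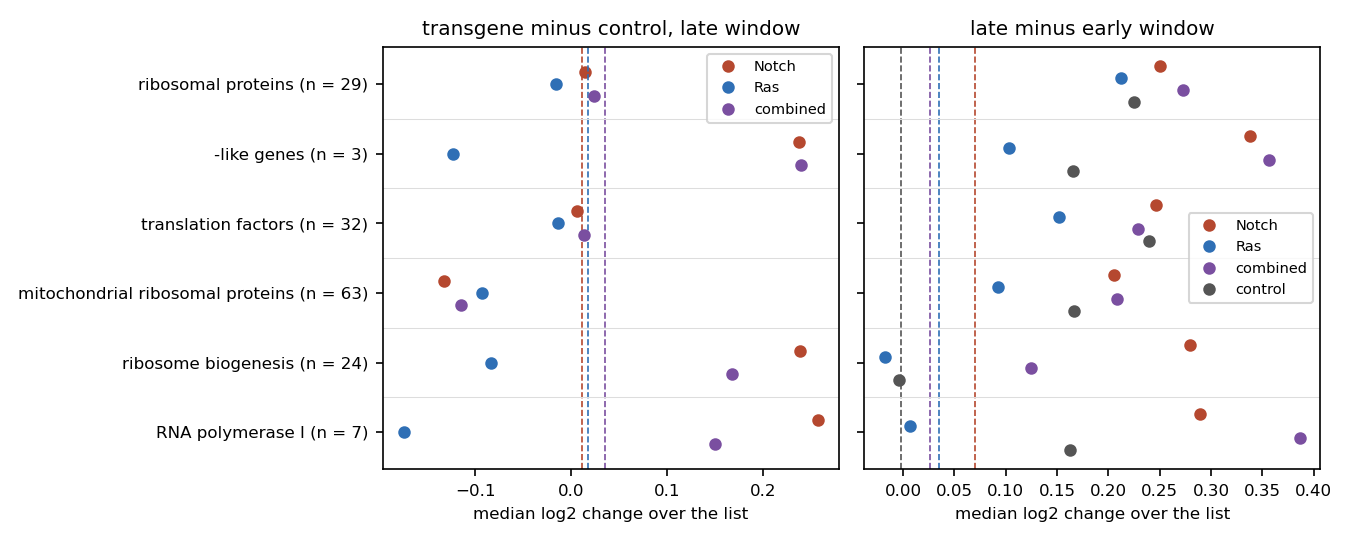
Median log2 change over each gene list (points, coloured by cross; n is the number of genes) for transgenic minus control embryos in the late window (left) and late minus early window (right); dashed lines are the medians over all 5736 rows. On the left the -like, biogenesis and RNA polymerase I lists lie above 0.1 for Notch and combined embryos, with ribosomal proteins near 0; on the right ribosomal proteins lie between 0.21 and 0.27 in every cross.

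Ribosomal protein genes varied little within groups and often together. The median within-group SD was 0.119 log2 units for the 32 members, 0.177 for all rows and 0.127 for the 108 other bright rows. Over the 24 arrays, the correlation of the deviations from the group means had a median of 0.39 over the 496 pairs of members (-0.48 to 0.92). This is a description, since members on 1 array share its RNA and its scaling. RpS12, which in the fly also acts in cell competition, had the highest median correlation with the others (0.73), followed by RpL17 (0.72). RpL40 (-0.05) and RpL36A (0.04) had the lowest. Ras late replicate 3 lay low in most members, for example RpS18 at 12.36, with 12.72 and 12.92 in replicates 1 and 2, and RpS7 at 13.07, with 13.58 and 13.54. RpL40 was an exception, with that array at 13.37 and the others at 13.32 and 13.26.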

How the data were processed

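Expression was measured on 24 DrosGenome1 arrays. The authors deposited log2 values, 1 per probe set and array, and GCRMA and limma were used per the submitters' processing notes (versions not given in the sources used here). GC-RMA by default normalises arrays to each other, which removes shifts shared by most genes. Of 14010 probe sets, 44 controls were left out; the platform annotation gave 12443 probe sets 1 symbol, 327 several and 1196 none, and 45 symbols had no match in RefSeq. Rows under a log2 value of 5 in all but 2 or fewer arrays were dropped and the brightest probe set stood for a gene, which left 5736 rows (5020 with 1 symbol). 2 probe sets shared by a ribosomal protein gene and another gene were not used. A model of 8 group means was fitted over all 24 arrays by lmFit and eBayes of limma 3.58.1 (R 4.3.3; 16 residual degrees of freedom, 4.09 of the prior), with p-values adjusted by Benjamini-Hochberg within each comparison. The fit was tested on simulated data.

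Named in each comparison were up to 4 called members with the largest rise and 4 with the largest fall among those whose groups did not overlap, or the 2 with the smallest p, plus the stalk, ubiquitin fusion and paralog genes and the members of largest and smallest spread; other lists gave at most 2 genes. Further members were named after their values were seen. RpS6 was not analysed here, and 1 of the 32 members, which is in every count, is not reported by name here. The members and lists were chosen with earlier results of these data known. The mean of the 4 crosses, its fits on sets of same-numbered arrays (duplicateCorrelation, or 1 mean per set) and the CreX centring were added after the values were seen. Replicate numbers paired arrays within a window: the correlation of same-numbered deviations was 0.16 to 0.63 in all 3 pairs of the 6 transgene comparisons. Across windows it was over 0.1 in all 3 pairs for Ras and combined embryos, and in 1 of 3 for Notch and control embryos. In combined embryos a pair of different numbers reached 0.12, above the weakest same-numbered pair (0.11). The number of arrays, 3 per group, limits the precision. Alternatives were other scalings and filters, the mean of a gene's probe sets, only the arrays compared, the replicate block and each array left out.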

Additional observations from a re-analysis of the deposited data

How the results depend on the processing

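The count of 0 called members held under every alternative for Notch, Ras and combined against control early, Ras against control late, both interactions and all 3 differences between windows. For Notch late it was 1 with median centring, quantile normalisation, no filter on low values or the replicate block, and 0 to 1 with an array left out; for combined late it was 1 with the replicate block and 0 with any array left out. Late against early, the counts in Notch embryos were 4 with median centring, 5 after quantile normalisation, 3 on only the arrays compared and 0 with CreX centring (5 to 15 with an array left out). In Ras embryos they were 2, 4 (3 higher and 1 lower), 0 and 0 (3 to 15). In combined embryos they were 4 with median centring, 5 after quantile normalisation and 0 with CreX centring (6 to 11). In control embryos they were 1, 3 (2 higher and 1 lower) and 0 under the same settings (2 to 6). The mean of the crosses gave 27 to 29 with an array left out and 0 with CreX centring; it gave 22 with the sets of same-numbered arrays as a random block and 18 with set means. With the replicate number as a block across windows, the counts were 13, 11, 18 and 8 in Notch, Ras, combined and control embryos and 28 in their mean. RpL27 in Notch embryos (-0.047, CreX centring) and RpL40 in the mean of the crosses (-0.0034, quantile normalisation) changed sign. CreX centring shifts all rows of an array alike; for the quantile normalisation the cause was not tested. Beside the calls given with their genes, the block added those of RpL7-like in late against early Notch embryos (limma adjusted p = 0.041) and of RpS29 in the mean of the crosses (0.026); it changed no other call of a named gene. Of 2584 values of single genes under other settings, 2444 kept their direction and side of the threshold, 113 lost a call and 25 gained one. With 1 array left out, 70 of 2880 such values lost a call and 19 gained one, among them RpS28b in late against early control embryos, lost without any 1 of the 6 arrays (limma adjusted p up to 0.12), and RpL36A and RpL37-1 in combined embryos, each lost without any of 5 (up to 0.12).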

Other observations

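The GAPDH 3' minus 5' difference also varied between crosses. In the late window it was 1.61 ± 0.146 in Notch, 2.44 ± 0.456 in Ras, 1.98 ± 0.579 in combined and 3.17 ± 0.684 in control embryos (SD, n = 3). The median of the 32 ribosomal protein genes was 12.92 ± 0.14, 12.87 ± 0.09, 12.92 ± 0.06 and 12.91 ± 0.07 log2 units on the same arrays. The highest value of any probe set on an array, control probe sets included, moved opposite to the members in mean (14.40 late, 14.89 early). It was 14.13 to 14.76 on late and 14.73 to 15.18 on early arrays, so the windows overlapped slightly.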
